A study of Rattus norvegicus with 10 samples.

Results

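The genes described here are 37 rat genes of glycolysis and of the response to low oxygen, read in mammary tumours that were sampled early by needle and again at the end. They were chosen by name. A gene was read from a probe set annotated to that gene alone, and where it had several, the probe set with the highest mean signal over the 10 arrays was used. Of the 37 genes, 36 had a probe set of their own, and all 36 passed the filter on dim probe sets, among 14217 genes with a probe set of their own and 10793 that passed the filter. The exception was Pkm, the pyruvate kinase gene of most tissues, whose probe set is shared with the pseudogene Pkm-ps20 and was therefore not read. The 36 were 15 glycolytic enzymes, 4 sugar and lactate transporters, 3 kinases that switch the pathway, 8 other hypoxia-induced genes, 4 further targets of the hypoxia factors and the genes of 2 hypoxia-inducible factor (HIF) alpha subunits.

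The tumours were induced in female rats of the outbred Sprague-Dawley strain by 1 oral dose of 100 mg/kg DMBA, a polycyclic hydrocarbon that causes mammary cancer in rats, and no other treatment was given to either group. The 5 biopsies were trucut needle cores of 0.7 cm by 2.5 mm from rats of 12 weeks, taken once a tumour measured 2 cm3, and the 5 total tumours were the same tumours in rats of 19 weeks. All were of Bloom-Richardson grade II, and RNA was read on a rat genome array of Affymetrix, which gives a log2 signal for each probe set. The age of the rat, the moment and the way of sampling all differ between the groups, and the labels number the arrays of each group in a run of their own, so these cannot be told apart. Values for the tumours are given in the order 31D3, 32D1, 37I1, 50I1 and 52I4.

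Glycolysis splits glucose into pyruvate in the cytosol, and lactate dehydrogenase turns pyruvate into lactate when mitochondria take up little of it. Many tumours run this pathway fast even with oxygen at hand. When oxygen is short, HIF alpha subunits escape hydroxylation and destruction, pair with Arnt and bind a short DNA core in the promoters of most glycolytic genes and of genes for blood vessel growth, pH control and mitochondrial turnover. Glycolytic enzymes also answer to other inputs, such as growth signals, while Car9, Egln3 and Ndrg1 are widely used as markers of hypoxia, which is why the enzymes were set against the other hypoxia-induced genes.

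The core that HIF binds reads ACGTG or GCGTG, which on the other strand is CACGT or CACGC, and it was searched on both strands in the 250 bases before each start of transcription, with overlapping matches counted, so that CACGTG counts on both strands. Of the 37 genes, 33 had a promoter in the RefSeq table of build GRCr8, and Pgk1, Slc2a3, Ndrg1 and Bnip3l did not. A match was present in at least 1 promoter of 22 of the 33 genes (66.7%), against 10866 of 27457 genes in that table (39.6%). By role, a match was found for 11 of 15 enzymes (73.3%) and 3 of 7 other hypoxia-induced genes (42.9%), the latter near the share over all genes. These 15 enzymes include Pkm and lack Pgk1, unlike the 15 read on the arrays. No match lay in these windows of Car9, Egln3, Adm, Vegfa or Slc16a3, nor in those of Hk2, Gpi, Tpi1, Pkm, Pfkfb4 or Epas1. Sequence outside these windows was not searched. The promoters of a pair of enzymes for the same reaction (Ldha and Ldhb), whose differences had opposite signs in 3 of 5 tumours, of a transporter (Slc2a1) and of a mitochondrial hypoxia gene (Bnip3) are shown, 5′ to 3′ along the gene, with the cores in capitals. Ldha lies on the plus strand at chr1:106507842-106508091, Ldhb on the minus strand at chr4:177177409-177177658, Slc2a1 on the plus strand at chr5:138002272-138002521 and Bnip3 on the minus strand at chr1:203154963-203155212.
Ldha: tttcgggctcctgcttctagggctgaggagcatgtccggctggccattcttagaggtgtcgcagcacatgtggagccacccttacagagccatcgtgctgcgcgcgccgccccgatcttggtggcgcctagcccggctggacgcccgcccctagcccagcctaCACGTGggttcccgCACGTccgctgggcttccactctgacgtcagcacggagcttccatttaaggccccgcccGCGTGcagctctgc
Ldhb: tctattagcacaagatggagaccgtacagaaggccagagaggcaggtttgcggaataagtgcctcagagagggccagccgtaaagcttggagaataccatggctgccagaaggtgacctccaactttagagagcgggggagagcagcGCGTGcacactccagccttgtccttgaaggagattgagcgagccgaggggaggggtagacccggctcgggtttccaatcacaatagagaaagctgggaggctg
Slc2a1: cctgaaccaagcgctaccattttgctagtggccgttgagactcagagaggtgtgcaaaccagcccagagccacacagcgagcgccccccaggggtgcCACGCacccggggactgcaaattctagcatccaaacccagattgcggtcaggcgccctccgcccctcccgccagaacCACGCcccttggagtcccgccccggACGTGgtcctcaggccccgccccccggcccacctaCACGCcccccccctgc
Bnip3: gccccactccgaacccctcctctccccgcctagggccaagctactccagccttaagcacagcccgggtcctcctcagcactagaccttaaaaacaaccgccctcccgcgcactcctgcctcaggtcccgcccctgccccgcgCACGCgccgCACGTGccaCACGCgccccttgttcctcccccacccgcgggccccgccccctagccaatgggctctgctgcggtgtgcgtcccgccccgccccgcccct
The windows of Ldha, Slc2a1 and Bnip3 held 4 matches each, and that of Ldhb held 1. The highest number among the 33 genes was 5, for P4ha2, whose mean difference was -0.18. A match describes the letters only, and binding was not measured.

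Across the 5 tumours, most of these genes had a higher mean signal in the total tumours than in the early biopsies, but no gene passed the test. The mean was higher in the total tumours for 29 of the 36 genes and lower for 7, where 51.2% of all genes tested had a higher mean. The median difference, total tumour minus biopsy, was 0.24 on the log2 scale over the 36 genes and 0.00393 over all genes tested. In limma's paired fit, 0 of the 36 passed an adjusted p of 0.05, and the share over all probe sets tested was also 0%. At an unadjusted p under 0.05 there were 2, Angptl4 and Eno2, both higher, and 6.08% of all probe sets tested passed that limit, so the count of members is near the background. Without 32D1 the count at that limit was 11 members, against 8.21% of all probe sets, and without 31D3 it was 3, against 4.79%. It was 1 member each without 37I1, 50I1 and 52I4, against 7.94%, 6.48% and 3.06% of all probe sets. In limma 0 members passed the adjusted p in each of these fits.

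Single tumours weighed on nearly all means. With each tumour left out in turn, the mean difference changed sign for 11 of the 36 genes, and for 24 of the other 25 it moved by over 1.5 times. The exception was Angptl4, which lay between 0.85 and 1.42. Slc16a3 was 0.23 without 31D3 and 1.01 without 32D1, Car9 was 0.40 and 1.34, and Slc2a1 was 0.15 and 0.68. Eno2 was 0.53 and 1.13, Egln3 was 0.38 and 1.07, and Ndrg1 was 0.17 and 0.93. None of the 36 genes differed in the same direction in 5 of 5 tumours, against 5.83% of all genes tested, and none had groups that did not overlap, against 0.417%.

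Within a tumour, these genes mostly differed in a common direction, and that direction was not the same in every tumour. In tumour 31D3 the total tumour was higher for 31 of the 36 genes, where 50.4% of all genes tested were higher. In tumour 32D1 the total tumour was lower for 32 of the 36, where 51.4% of all genes were lower. The same 31 genes did both, against 32.5% of all genes, while the opposite pair of directions was found for Pfkm, Ldhb, Bnip3l and Epas1, against 30.7% of all genes. Aldoc was lower in both. The total tumour was higher for 28 genes in 37I1 (49.6% of all genes), 29 in 50I1 (49.1%) and 23 in 52I4 (50.1%). These shares describe genes read on the same arrays, which are not independent of each other, and they were not tested.

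**Figure D1:**
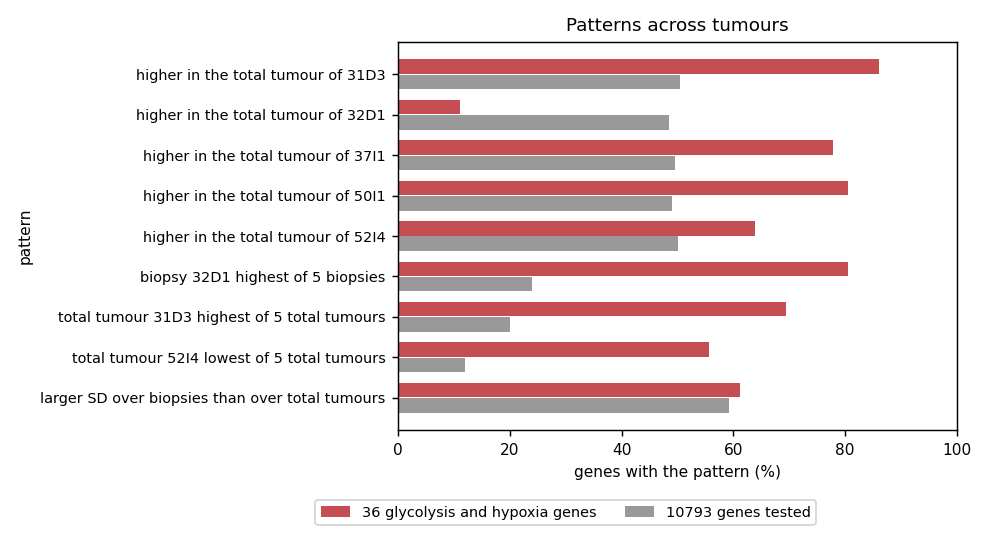
Share of genes, in percent, that show each pattern, for the 36 glycolysis and hypoxia genes (red) and the 10793 genes tested (grey). The red bars reach 86.1% for higher signals in total tumour 31D3 and 11.1% for higher signals in total tumour 32D1, while the grey bars of those patterns lie near the middle of the axis.

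Single arrays carried much of this pattern. The biopsy of 32D1 was the highest of the 5 biopsies for 29 of the 36 genes, against 24% of all genes tested, among them 12 of 15 enzymes, all 4 transporters and 7 of 8 other hypoxia-induced genes. The total tumour of 31D3 was the highest of its group for 25 genes, against 20% of all genes tested, including all 8 other hypoxia-induced genes and 8 of 15 enzymes. The total tumour of 52I4 was the lowest of its group for 20 genes, against 12%, and the biopsy of 52I4 was the lowest biopsy for 13, against 13.5%, with 6 of the 8 other hypoxia-induced genes in each count. The biopsy of 31D3 was the lowest biopsy for 11 genes (30.6%), 7 of them enzymes, against 25.3% of all genes, so this count is near the background.

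**Figure D2:**
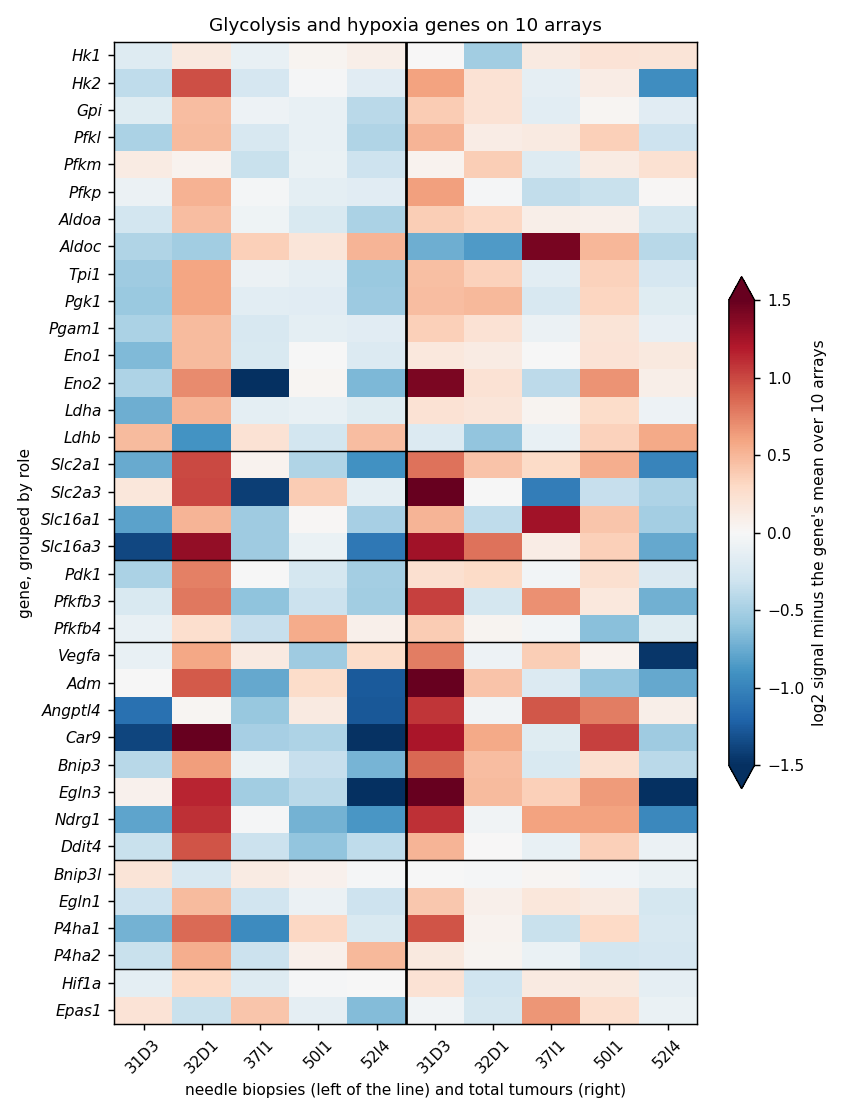
Log2 signal of each of the 36 genes on each array, minus the mean of that gene over the 10 arrays, with biopsies left of the thick line, total tumours right of it and thin lines between the role groups; the colours stop at 1.5 in both directions. The columns of biopsy 32D1 and total tumour 31D3 are red for most genes, and Ldhb, Aldoc and Bnip3l are blue or pale in biopsy 32D1.

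Among the enzymes, the difference within a tumour was modest and shared by most steps of the pathway. Averaged over the 15 enzymes, the total tumour differed from its biopsy by 0.63, -0.28, 0.20, 0.32 and 0.12, with a mean of 0.20 (SE 0.148, n = 5 tumours) on the log2 scale. Without 31D3 the mean was 0.0881, and without 32D1 it was 0.32. In 31D3 the signal was higher for 12 of the 15 enzymes, in 50I1 for 14 and in 52I4 for 13, while in 32D1 it was higher for 2, Pfkm and Ldhb. Tumour 37I1 was more divided, with 10 higher and 5 lower (Gpi, Pfkp, Tpi1, Pgk1 and Ldhb). Its largest differences were those of Eno2 (1.22) and Aldoc (1.06).

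Ldha, which turns pyruvate into lactate, had log2 signals of 11.80, 13.04, 12.39, 12.42 and 12.35 in the biopsies and 12.75, 12.72, 12.57, 12.81 and 12.46 in the total tumours. The biopsies spanned a wide range, from 31D3 at the bottom to 32D1 at the top, and the total tumours lay close together inside it. The difference was 0.26 (SE 0.182), a fold of 1.20, with an adjusted p of 0.873 in limma. Ldhb, whose subunit favours the reaction back to pyruvate, had 10.43, 9.05, 10.18, 9.68 and 10.42 in the biopsies and 9.75, 9.37, 9.84, 10.31 and 10.53 in the total tumours. Its lowest biopsy was 32D1, where Ldha was highest, and its highest was 31D3, where Ldha was lowest. The differences of both genes had opposite signs in 31D3, 32D1 and 37I1 and the same sign in 50I1 and 52I4. The difference of Ldha minus that of Ldhb was 1.63, -0.64, 0.52, -0.23 and 0.01 in the 5 tumours, with a mean of 0.26 (SE 0.392).

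Eno1, the enolase of most tissues, had 12.10, 13.23, 12.53, 12.75 and 12.55 in the biopsies and 12.92, 12.89, 12.75, 12.97 and 12.91 in the total tumours. All 5 total tumours lay within the span of the biopsies, and their SD of 0.0812 compared with 0.409 over the biopsies. Its mean difference was 0.25 (SE 0.166). Eno2, the enolase best known from neurons, had 6.51, 7.68, 5.36, 7.00 and 6.30 in the biopsies and 8.38, 7.19, 6.58, 7.65 and 7.06 in the total tumours. It was higher in 4 of 5 total tumours and lower in 32D1, and the groups overlapped. The difference of Eno2 was 0.80 (SE 0.317), a fold of 1.74, with an unadjusted p of 0.0421 and an adjusted p of 0.798 in limma. The difference of Eno1 minus that of Eno2 was lower than 0 in 4 of 5 tumours, with a mean of -0.55 (SE 0.223).

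Pgk1, which makes the first ATP of the pathway, had 11.82, 12.96, 12.21, 12.20 and 11.82 in the biopsies and 12.83, 12.86, 12.13, 12.70 and 12.19 in the total tumours. It differed by 1.01 in 31D3 and by 0.50 or less in every other tumour, and the mean difference was 0.34 (SE 0.181, adjusted p 0.846 in limma). Tpi1, which interconverts the triose phosphates, differed by 0.99, -0.25, -0.07, 0.48 and 0.31, with a mean of 0.29 (SE 0.189). The aldolase of muscle and most other tissues, Aldoa, differed by 0.23 (SE 0.128), and the mutase Pgam1 by 0.22 (SE 0.163); both were higher in every total tumour but that of 32D1. Gpi, which turns glucose 6-phosphate into fructose 6-phosphate, differed by 0.12 (SE 0.135) and was higher in 3 of 5.

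Among the phosphofructokinases, which set the committed step, the liver form Pfkl differed by 0.98, -0.36, 0.38, 0.47 and 0.14, with a mean of 0.32 (SE 0.190). The muscle form Pfkm had the reverse pattern at both ends, with -0.07 in 31D3 and 0.32 in 32D1, and a mean of 0.23 (SE 0.113). The platelet form Pfkp had 0.71 in 31D3, -0.54 in 32D1 and a mean of -0.04 (SE 0.191). So the 3 forms of the same enzyme had no shared order over the tumours. Hexokinases trap glucose in the cell as glucose 6-phosphate. Hk1 was higher in 4 total tumours and lower by 0.66 in 32D1, with a mean difference of 0.01 (SE 0.156). Hk2, the form that insulin and hypoxia induce, was higher by 0.98 in 31D3, lower by 0.74 in 32D1 and lower by 0.76 in 52I4, with a mean of -0.06 (SE 0.268). The aldolase of brain, Aldoc, stood apart from the other enzymes, with 8.93, 8.87, 9.74, 9.57 and 9.90 in the biopsies and 8.66, 8.54, 10.81, 9.88 and 8.98 in the total tumours. It was highest in total tumour 37I1 and lowest in 32D1 and 31D3 at both moments, and its mean difference was -0.03 (SE 0.277).

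The transporters had a wider spread over the tumours than the enzymes. Slc2a1, the GLUT1 glucose carrier of most cells, had 9.96, 11.71, 10.77, 10.26 and 9.81 in the biopsies and 11.54, 11.14, 11.01, 11.27 and 9.73 in the total tumours. Its signal was higher in 3 total tumours, lower in 32D1 and nearly level in 52I4, which was the lowest in both groups. The mean difference was 0.43 (SE 0.312, adjusted p 0.875 in limma). Slc16a3, the MCT4 carrier that exports lactate, had 7.27, 9.95, 8.10, 8.53 and 7.56 in the biopsies and 9.89, 9.44, 8.75, 8.99 and 7.86 in the total tumours. In 31D3 it was 6.16-fold higher in the total tumour, the largest fold among the 36 genes in any tumour, and 32D1 was the exception, with a lower total tumour. The mean difference of Slc16a3 was 0.71 (SE 0.416), a fold of 1.63, with an adjusted p of 0.851 in limma.

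Slc16a1, the MCT1 carrier that moves lactate either way, differed by 1.31, -0.89, 1.79, 0.40 and -0.01, with a mean of 0.52 (SE 0.384). Its largest difference was in 37I1, unlike that of the other 3 transporters. Slc2a3, the high-affinity GLUT3 glucose carrier, differed by 1.69, -1.01, 0.38, -0.73 and -0.31, and these cancelled to a mean of 0.00 (SE 0.388). A second probe set of Slc2a3 gave a mean of -0.22. Of the 3 switch kinases, Pdk1, which inhibits pyruvate dehydrogenase, differed by 0.20 (SE 0.183). Its other probe set above the filter gave 0.06 in 31D3, against 0.72, and a mean of 0.06. Pfkfb3 and Pfkfb4 set the level of the activator of phosphofructokinase. Pfkfb3 differed by 1.26, -1.05, 1.29, 0.48 and -0.20 with a mean of 0.36 (SE 0.361). Another Pfkfb3 probe set above the filter gave 0.19, -0.14, -0.25, 0.49 and 0.27, with a mean of 0.11. Pfkfb4 differed by -0.17 (SE 0.245), with its lowest value, -1.19, in 50I1. Over all members, 11 further probe sets passed the filter, and 2 of them, of Slc2a3 and Egln1, had a mean of the opposite sign.

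**Figure D3:**
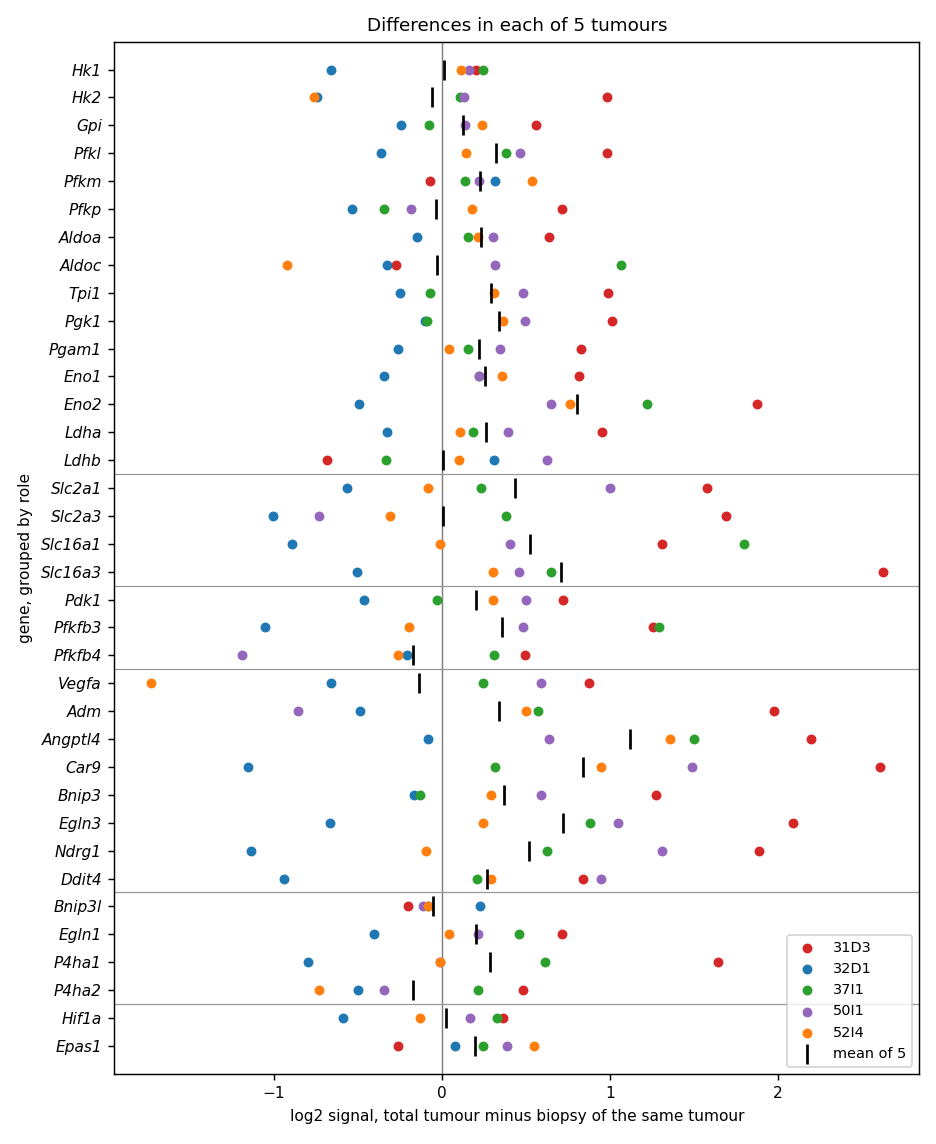
Difference in log2 signal, total tumour minus biopsy of the same tumour, for each of the 36 genes, with a coloured point for each of the 5 tumours, a black bar for their mean and grey lines between the role groups. The points of 31D3 (red) lie to the right for 31 genes and those of 32D1 (blue) to the left for 32, and no gene has all 5 points on the same side of 0.

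Averaged over each group, the other hypoxia-induced genes had larger differences than the enzymes, 0.50 against 0.20 on the log2 scale, and the 4 transporters had 0.42. The means of single genes overlapped. They ran from -0.14 (Vegfa) to 1.12 (Angptl4) in this group and from -0.06 (Hk2) to 0.80 (Eno2) among the enzymes. Angptl4, a secreted inhibitor of lipoprotein lipase, had 7.19, 8.35, 7.75, 8.44 and 7.04 in the biopsies and 9.38, 8.26, 9.25, 9.08 and 8.39 in the total tumours. It was higher in 4 of 5 total tumours and nearly level in 32D1, and the lowest total tumour lay below the highest biopsy. The difference of 1.12 (SE 0.318) was a fold of 2.17, with an unadjusted p of 0.0110 and an adjusted p of 0.657 in limma. Angptl4 is also a target of fatty acid receptors and is made by fat cells. The fat cell markers Lpl and Cfd had means of 9.78 and 7.98 in the biopsies and 10.13 and 8.84 in the total tumours. The third marker above the filter, Fabp4, named after its values were seen, differed by -1.80, -0.14, 4.28, -0.95 and 2.86, so in 31D3 it went opposite to Lpl (0.50) and Cfd (1.34). Over the 3 of 7 fat cell markers above the filter the differences were 0.02, -0.09, 2.84, -1.10 and 1.76, with a mean level of 6.60 to 8.54 over the biopsies and 7.43 to 9.44 over the total tumours. The defining markers Adipoq, Plin1, Cidec and Lep were below the filter. The part of fat cells in the Angptl4 difference was not tested.

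Car9, a carbonic anhydrase at the cell surface that helps to keep the pH of hypoxic cells, had 5.29, 8.40, 6.17, 6.21 and 5.19 in the biopsies and 7.90, 7.24, 6.49, 7.70 and 6.14 in the total tumours. The biopsy of 32D1 was above every total tumour, and the other 4 biopsies lay near or below the lowest total tumours. Its difference was 0.84 (SE 0.498), a fold of 1.79, with an adjusted p of 0.854 in limma. Egln3, a prolyl hydroxylase that marks HIF alpha for destruction and is itself induced by HIF, had 8.84, 9.92, 8.26, 8.37 and 6.71 in the biopsies and 10.93, 9.25, 9.13, 9.42 and 6.95 in the total tumours. Tumour 52I4 was far below the rest at both moments. The difference of Egln3 was 0.72 (SE 0.368, adjusted p 0.846 in limma), and it was higher in 4 of 5 total tumours.

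Ndrg1, a stress gene strongly induced by hypoxia, had 9.09, 10.97, 9.86, 9.17 and 9.005 in the biopsies and 10.98, 9.83, 10.48, 10.48 and 8.91 in the total tumours. It was higher in 3 total tumours, lower in 32D1 and nearly level in 52I4, with a mean difference of 0.52 (SE 0.426). Bnip3, which drives the removal of mitochondria, had 9.66, 10.70, 9.98, 9.73 and 9.38 in the biopsies and 10.93, 10.53, 9.85, 10.32 and 9.67 in the total tumours. Its total tumours were higher in 31D3, 50I1 and 52I4, and the mean difference was 0.37 (SE 0.224). Ddit4, an inhibitor of the growth kinase mTORC1, had 9.43, 10.70, 9.43, 9.17 and 9.38 in the biopsies and 10.26, 9.76, 9.64, 10.11 and 9.67 in the total tumours. Apart from biopsy 32D1, every biopsy of Ddit4 lay below every total tumour, and the mean difference was 0.27 (SE 0.276).

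Adm, the vessel-widening peptide adrenomedullin, had 7.34, 8.26, 6.58, 7.63 and 6.08 in the biopsies and 9.31, 7.77, 7.15, 6.77 and 6.59 in the total tumours. Unlike the other 7 genes of its group it was lower in total tumour 50I1, by 0.86, and its mean difference was 0.34 (SE 0.397). Vegfa, the main growth factor of blood vessels, had 9.10, 9.79, 9.34, 8.68 and 9.48 in the biopsies and 9.98, 9.13, 9.59, 9.26 and 7.75 in the total tumours. It was higher in 31D3, 37I1 and 50I1, and the total tumour of 52I4 was the lowest of the 10 arrays, 1.73 below its biopsy on the log2 scale. The mean difference of Vegfa was -0.14 (SE 0.382), the only mean below 0 among the 8 genes, and without 52I4 its mean was 0.26. Another Vegfa probe set above the filter gave -0.16 in 37I1 and a mean of -0.0067.

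Of the further targets, P4ha1 and P4ha2 hydroxylate collagen, Egln1 is the main oxygen sensor of HIF and Bnip3l is the paralog of Bnip3. P4ha1 differed by 1.64, -0.80, 0.61, -0.01 and -0.02, with a mean of 0.29 (SE 0.330), and its mean without 31D3 was -0.0531. P4ha2 differed by -0.18 (SE 0.195) and Egln1 by 0.20 (SE 0.170), while a second probe set of Egln1 gave -0.02. Bnip3l was nearly level, with 11.36, 10.92, 11.28, 11.23 and 11.15 in the biopsies and 11.16, 11.15, 11.19, 11.12 and 11.07 in the total tumours. Its difference of -0.05 (SE 0.0986) stood beside 0.37 for Bnip3, and the difference of Bnip3 minus that of Bnip3l was above 0 in 3 of 5 tumours. The HIF alpha subunits are controlled mainly through protein stability, and the arrays read their messages. Hif1a had 10.52, 10.97, 10.47, 10.65 and 10.66 in the biopsies and 10.89, 10.38, 10.80, 10.82 and 10.53 in the total tumours. It was highest in the biopsy of 32D1 and lowest in the total tumour of 32D1, and the mean difference was 0.03 (SE 0.161). Epas1, which encodes HIF-2 alpha and is abundant in vessels, differed by -0.26, 0.07, 0.24, 0.39 and 0.54, with a mean of 0.20 (SE 0.135). It was lower in total tumour 31D3 and slightly higher in 32D1, the opposite of Car9 and Slc16a3. Another Epas1 probe set above the filter gave -0.41 in 31D3 but -0.10 in 32D1, with a mean of 0.08.

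Set against each other, the enzymes and the other hypoxia-induced genes went in the same direction in each of the 5 tumours, in the same order, and the hypoxia-induced genes went further. Averaged over the 8 genes, the differences were 1.72, -0.66, 0.53, 0.72 and 0.22, with a mean of 0.50 (SE 0.385). All 8 genes were higher in total tumour 31D3 and all 8 lower in 32D1, and 7, 7 and 6 of the 8 were higher in 37I1, 50I1 and 52I4. The enzymes minus the other hypoxia-induced genes came to -1.08, 0.38, -0.33, -0.40 and -0.11, with a mean of -0.31 (SE 0.238), below 0 in 4 of 5 tumours. Without 31D3 the mean of the 8 genes was 0.20 and the contrast -0.11, and without 32D1 they were 0.80 and -0.48. These means are a description, since both groups were chosen by name with earlier results known.

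The contrast over single arrays was highest on both arrays of tumour 52I4, where the other hypoxia-induced genes were lowest. With each gene centred on its mean over the 10 arrays, the enzymes stood at -0.32, 0.33, -0.20, -0.09 and -0.22 in the biopsies and 0.31, 0.06, -0.00, 0.23 and -0.10 in the total tumours. The other hypoxia-induced genes stood at -0.51, 0.88, -0.33, -0.33 and -0.97 in the biopsies and 1.21, 0.22, 0.19, 0.39 and -0.75 in the total tumours. On both arrays of 52I4 the hypoxia-induced genes were therefore far below their average while the enzymes were less far below theirs, a gap of 0.75 in the biopsy and 0.65 in the total tumour. On the arrays with the highest hypoxia genes, biopsy 32D1 and total tumour 31D3, the gap was -0.55 and -0.90. Over the biopsies the SD of the group mean was 0.256 for the enzymes and 0.686 for the other hypoxia-induced genes, and over the total tumours it was 0.168 and 0.694.

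**Figure D4:**
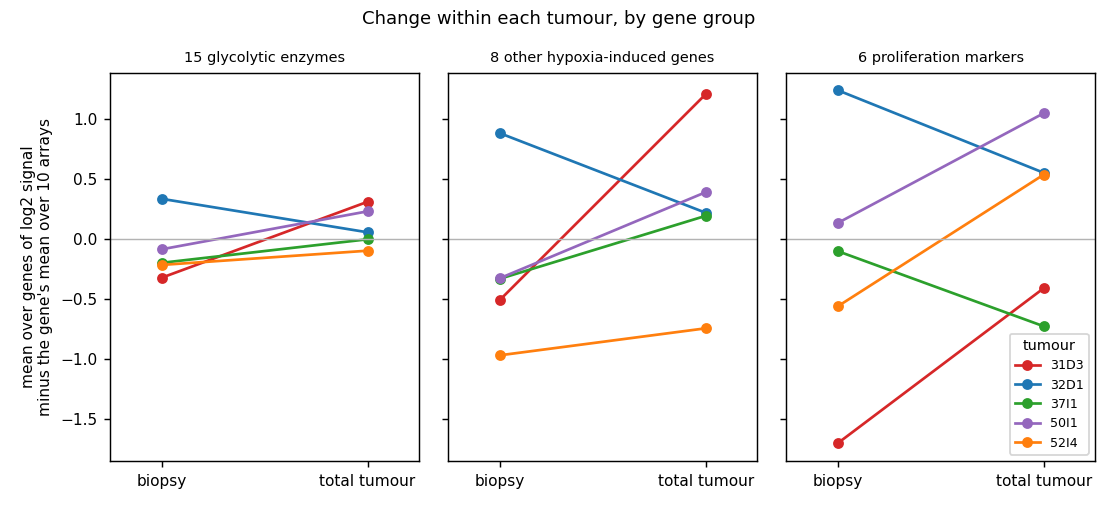
Mean over genes of the log2 signal minus the mean of each gene over the 10 arrays, in the biopsy and the total tumour of each of the 5 tumours, for the 15 enzymes (left), the 8 other hypoxia-induced genes (middle) and 6 proliferation markers (right). Enzymes and hypoxia-induced genes slope in the same direction in each tumour, with the hypoxia-induced genes running from -0.97 to 1.21, while the proliferation markers of 37I1 slope downward.

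The other role groups also had their highest difference in 31D3, except the HIF alpha subunits. The 4 transporters differed by 1.80, -0.74, 0.76, 0.28 and -0.03, with a mean of 0.42 (SE 0.424), which was 0.0697 without 31D3 and 0.71 without 32D1. The 3 switch kinases differed by 0.82, -0.58, 0.52, -0.07 and -0.05, with a mean of 0.13 that was -0.0443 without 31D3. The 4 further targets differed by 0.66, -0.37, 0.30, -0.06 and -0.20, with a mean of 0.0655 that was -0.0827 without 31D3. The HIF alpha subunits differed by 0.05, -0.26, 0.28, 0.28 and 0.21, with a mean of 0.11. Spread between tumours was not larger in the biopsies by more than usual: the SD over the biopsies was above that over the total tumours for 22 of the 36 genes, against 59.2% of all genes tested. The median SD of the 36 genes was 0.47 over the biopsies and 0.38 over the total tumours, and over all genes tested it was 0.25 and 0.22.

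Related genes outside the 37, listed by pathway, had 0 members past an adjusted p of 0.05 in limma. Of 23 further hypoxia targets above the filter, 15 had a higher and 8 a lower mean in the total tumours, with a median of 0.05. Their group differences, 0.80, -0.48, 0.32, 0.10 and -0.11, again put 31D3 at the top and 32D1 at the bottom, with 21 of 23 genes higher in the former and 4 of 23 in the latter. Hmox1, which degrades heme, differed by 0.70 (SE 0.292, adjusted p 0.817), and the adenylate kinase Ak4 by 0.57 (SE 0.279, adjusted p 0.846).

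Of 9 genes that control HIF, 4 had a higher and 5 a lower mean, with a median of -0.13. The coactivator Ep300 was lower in 5 of 5 total tumours, by 0.27 on average (SE 0.102, adjusted p 0.786 in limma), and Arnt, the partner of the alpha subunits, differed by -0.21 (SE 0.104, adjusted p 0.846). Of 12 genes of pyruvate dehydrogenase and of pyruvate entry into mitochondria, 7 were higher and 5 lower, with a median of 0.05. Pdk4, a pyruvate dehydrogenase kinase of fasting and fat use, had 7.86, 4.98, 7.59, 6.51 and 8.12 in the biopsies and 8.09, 5.77, 10.30, 8.01 and 8.42 in the total tumours. It was higher in 5 of 5 total tumours and lowest in tumour 32D1 at both moments, where Pdk1 of the biopsy was at its highest, and the difference was 1.11 (SE 0.371, adjusted p 0.705 in limma). Pdp2, a phosphatase that reactivates pyruvate dehydrogenase, differed by -0.27 (SE 0.126).

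Of 10 other genes of glycolysis and glucose synthesis above the filter, 7 were higher and 3 lower, with a median of 0.06. Pgm2 differed by 0.27 (SE 0.124, adjusted p 0.842), and Adpgk, a glucokinase that uses ADP, was lower in 5 of 5 total tumours, by 0.14 on average (SE 0.0818, adjusted p 0.850 in limma). Of 7 genes of the pentose phosphate pathway, which branches off to make NADPH, 5 were higher and 2 lower, with a median of 0.14. H6pd, its first enzyme in the endoplasmic reticulum, differed by 0.39 (SE 0.179), and the transketolase Tkt by 0.23 (SE 0.108). Gapdh, the glycolytic enzyme that the study used as its housekeeping control, is read by 3 control probe sets whose mean differed by 0.79, -0.20, 0.03, 0.29 and 0.46 (mean 0.27, SE 0.171), with the sign of the enzymes in every tumour. The 3 control probe sets of beta-actin differed by -0.04 (SE 0.0439).

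Markers of growth and of other cell types were read beside these genes. In whole tissue, fewer cells of a type and less RNA per cell cannot be told apart. The 6 proliferation markers, with Cdk1 and Mki67 the brightest, differed by 1.29, -0.69, -0.63, 0.92 and 1.10, in the direction of the enzymes in every tumour but 37I1. All 6 were above the filter, and their mean level ran from 6.66 to 9.60 over the biopsies and from 7.63 to 9.41 over the total tumours. Among the biopsies, that of 31D3 had the lowest and that of 32D1 the highest proliferation level, while the total tumour of 31D3 was not high. The part of proliferation in the differences above was not tested.

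The 6 luminal epithelium markers, which define the labelled tissue and include Krt19 and Epcam, were bright on every array, with a mean level of 11.49 to 11.99 over the biopsies and 11.52 to 12.17 over the total tumours. Their mean differed by 0.03, -0.16, 0.18, 0.49 and 0.26, with the sign of the enzymes and of the hypoxia-induced genes in every tumour. Single markers were divided, with 2, 5, 1, 6 and 5 of the 6 higher in the total tumour. The 6 macrophage markers, with Cd14 and Cd68 the brightest, differed by 0.97, -0.54, 1.90, -1.61 and -0.47, from 7.40 to 9.71 over the biopsies and 8.10 to 9.87 over the total tumours. The 6 fibroblast markers, with Col3a1 and Col1a2 the brightest, differed by 0.81, -0.23, 2.52, -1.32 and 1.62, from 8.20 to 11.77 and from 10.45 to 11.88. Both lists had the sign of the hypoxia-induced genes in 31D3, 32D1 and 37I1 and the opposite sign in 50I1.

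The 7 endothelial markers, with Emcn and Esam the brightest, differed by 0.77, -0.47, 0.76, -1.15 and 1.003, from 6.66 to 7.80 over the biopsies and 6.64 to 8.03 over the total tumours, with Cdh5 not read. The 3 red cell markers that were read, led by Hbb and Alas2, differed by 0.97, 1.42, -0.02, 0.50 and -0.17, from 7.09 to 8.48 and from 7.29 to 9.30. Of 6 neutrophil markers 2 were above the filter, S100a8 and S100a9, which tumour epithelium can also make. The pair differed by 0.85, 2.38, 2.84, 0.03 and 1.71, from 4.75 to 7.67 and from 6.22 to 10.05. Of 9 skeletal muscle markers 3 were above the filter, with Myh1 and Eno3 the brightest and Ckm, Mb and Myh4 below it, and Eno3 is also in the glycolysis list. The 3 differed by 0.05, -0.16, -1.05, -1.44 and -0.28, from 6.99 to 9.62 and from 6.71 to 8.57. The third, Acta1, named after its values were seen, was lower in 5 of 5 total tumours, by 2.45 in 37I1 and 3.38 in 50I1, while Myh1 and Eno3 had mean differences of -0.07 and -0.21. The part of these cells in the values of the glycolytic and hypoxia genes was not tested.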

How the data were processed

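The authors deposited 1 log2 signal for each probe set and array, which the submitters' processing notes credit to RMA (Robust Multichip Average). RMA puts all arrays on 1 distribution, so it takes out any shift that most transcripts of an array share. The sources used here give neither the RMA version nor the chip definition. Per the labels' series text, GeneSpring GX 7.3 served for statistics. Values between 2.34 and 14.26 show a log2 scale; array medians were 5.99 to 6.12 and correlations between arrays 0.952 to 0.989. For the late samples, the label of total tumour was followed, although the series text speaks of a trucut.

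The 57 control probe sets of 31099 were left out of the filter and the tests, and those of Gapdh and beta-actin were read apart. The platform annotation lists 1 gene for 20826 of the remaining 31042, several for 436 and none for 9780. Symbols were updated through gene identifiers. The dimmest 40% by mean signal (limit 5.15) were left out, which left 18625 probe sets and 10793 genes.

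The comparison of total tumours and biopsies used limma 3.58.1 (lmFit, eBayes; R 4.3.3), and the tumour was a block, since the labels give the same 5 tumour names in both groups. Correlations of deviations from the group means exceeded 0.1 in 4 of 5 pairs (lowest -0.21, highest 0.34) and reached 0.36 between different tumours. Benjamini-Hochberg adjustment ran over all 18625 probe sets, and the threshold was 0.05. Each SE of a single gene is limma's moderated SE, and each SE of a group is the SD over 5 tumours divided by the root of their number. Whether each tumour grew in its own rat is not in the labels, so the p-values speak only of the spread over these tumours. On simulated data over 18625 probe sets, limma recovered 80 of 100 planted changes of size 1 (log2) and 98 of 100 of size 2, and made 13 false calls; the simulated noise is independent, so this is no measure of power here. Precision is limited by how few arrays there are.

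The members, lists and tests were chosen with earlier results of these data known. Every member is named; from each related list the 2 genes with the smallest p were named, and from each marker list the 2 brightest. Alternatives were other filters, normalizations and ways to summarise probe sets, array weights, no tumour block, the methods' paired t-test and leaving out each tumour. Promoters came from RefSeq (GRCr8). Figures were drawn with matplotlib 3.10.9.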

Additional observations from a re-analysis of the deposited data

Results flagged for a closer look

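Among 76 groups of 5 samples examined (each of the 36 genes, the mean of the enzymes and the mean of the other hypoxia-induced genes, in biopsies and in total tumours), 6 held a sample far from the other 4, with a gap to its neighbour above 0.71 of the whole range. Chance alone marks about 1 in 20 such groups, so 6 of 76 is near that share. The groups were read on the same arrays and are not independent of each other. In 5 of the 6 the sample was the biopsy of 32D1, which was the highest of 5 for Hk2 (7.82, next 6.84), Pfkp (10.64, next 10.10), Pfkfb3 (8.32, next 7.30), Ddit4 (10.70, next 9.43) and Egln1 (9.16, next 8.59) on the log2 scale. The remaining one was Hk1, the hexokinase of most tissues, where the total tumour of 32D1 was the lowest of 5 (9.07, next 9.60).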

How the results depend on the processing

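The paired fit with the tumour as a replicate block and the fit with no replicate block each called 0 probe sets and 0 of the 36 genes at an adjusted p of 0.05, and so did every other alternative run. At an unadjusted p under 0.05 limma called 1133 probe sets with the block, 869 with no replicate block, 2128 with no filter, 1677 with a 20% filter, 1690 with array weights, 1025 after centring each array on its median, 1035 after quantile normalization and 570 without 52I4. The methods' paired t-test called 1013 and 0 after adjustment. The number of members under that limit was 2 with the block, 1 to 3 in the other alternatives, and 11 without 32D1, where 8.21% of all probe sets passed. The means of the enzymes, of the other hypoxia-induced genes and of their contrast kept their sign in every alternative run on them, while the switch kinases and the further HIF targets turned to -0.0443 and -0.0827 without 31D3. Leaving out each tumour in turn, the enzymes ran from 0.0881 to 0.32, the other hypoxia-induced genes from 0.20 to 0.80 and the contrast from -0.48 to -0.11. Of single genes, 11 of 36 changed sign with some tumour left out, 6 of them without 31D3 and 4 without 32D1, and 25 did not. Their ranges were -0.0475 to 0.18 for Hk1, -0.32 to 0.12 for Hk2, -0.22 to 0.0901 for Pfkp, -0.30 to 0.19 for Aldoc, -0.15 to 0.18 for Ldhb, -0.42 to 0.26 for Slc2a3, -0.34 to 0.0828 for Pfkfb4, -0.39 to 0.26 for Vegfa, -0.0686 to 0.64 for Adm, -0.0531 to 0.56 for P4ha1 and -0.0585 to 0.18 for Hif1a. The mean of all probe sets of a gene turned Hk1 to -0.0192 and Slc2a3 to -0.11, median centring turned Aldoc to 0.00191, quantile normalization turned Ldhb to -0.00488, and array weights turned Slc2a3 to -0.20 and Hif1a to -0.0221. The cause of these turns was not tested.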
